A study of Saccharomyces cerevisiae with 6 samples.

Results

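Succinate dehydrogenase of the budding yeast Saccharomyces cerevisiae was followed through 6 genes, the subunit genes SDH1, SDH2, SDH3 and SDH4 and the paralogues SHH3 and SHH4. They were taken by symbol from the platform's gene annotation, with earlier results of these data known. They make up 6 of the 5449 yeast genes tested. Each was read by 1 probe set of a one-colour Affymetrix array. Per the labels, 3 arrays were of wild type (WT) cells and 3 of a gpm1 mutant, which the series title describes as a knock-out of phosphoglycerate mutase, a glycolytic enzyme. Both groups were grown in batch culture on ethanol and glycerol per the labels. The labels do not give the strain background or the way the gene was deleted. They also do not say whether separate cultures were used within a group, so the p-values cover sample-to-sample spread only, and part of it may be technical.

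Succinate dehydrogenase, or respiratory complex II, oxidises succinate to fumarate in the tricarboxylic acid cycle and hands the electrons to ubiquinone in the mitochondrial inner membrane. Sdh1 carries the flavin and the active site, Sdh2 carries the iron-sulphur clusters, and Sdh3 and Sdh4 anchor the complex in the membrane. Yeast needs the enzyme to grow on carbon sources that must be respired, such as ethanol and glycerol. SHH3 and SHH4 are named as homologues of SDH3 and SDH4 and encode mitochondrial inner membrane proteins. Sdh3 also serves in the TIM22 machine, which inserts carrier proteins into the inner membrane, together with Tim18, another relative of Sdh4.

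The signal of GPM1 (YKL152C), the gene named in the labels, ran against them. WT-labelled arrays gave 5.16, 5.12 and 5.17 and gpm1-labelled arrays 12.51, 12.48 and 11.82, so all directions given are those of the labelled groups and not of a genotype. Values are deposited probe set signals taken as log2. Probe sets whose gene is not in the yeast gene table served as background, and the 95th percentile of their means was 6.09. The gpm1-labelled arrays also stood apart from each other. The median SD over all genes was 0.248 among them and 0.0484 among the WT-labelled arrays. The poly-A control probe sets, which report on RNA added before labelling, averaged 7.14, 6.67 and 6.21 on gpm1-labelled replicates 1, 2 and 3, and 5.92, 6.22 and 6.22 on the WT-labelled arrays. With 3 arrays per group the precision of each comparison is limited.

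Of the 6 genes, SHH3 was the 1 past a limma adjusted p of 0.05 over all genes, with a log2 difference (labelled gpm1 minus labelled WT) of -2.39. Limma fits each gene and draws its spread towards a value estimated from all genes. The fit takes the same spread for both groups, although their median SDs were unlike (0.248 labelled gpm1, 0.0484 labelled WT). SHH4 stood at -0.82 and the 4 subunit genes between -0.30 and -0.22, and none of these 5 passed. Over all genes the median difference was 0.02, and 43 genes, or 0.789% of those tested, passed as lower. The median over the 6 genes was -0.29. As each array averages a whole culture, fewer cells holding a transcript and less transcript per cell cannot be told apart.

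**Figure D1:**
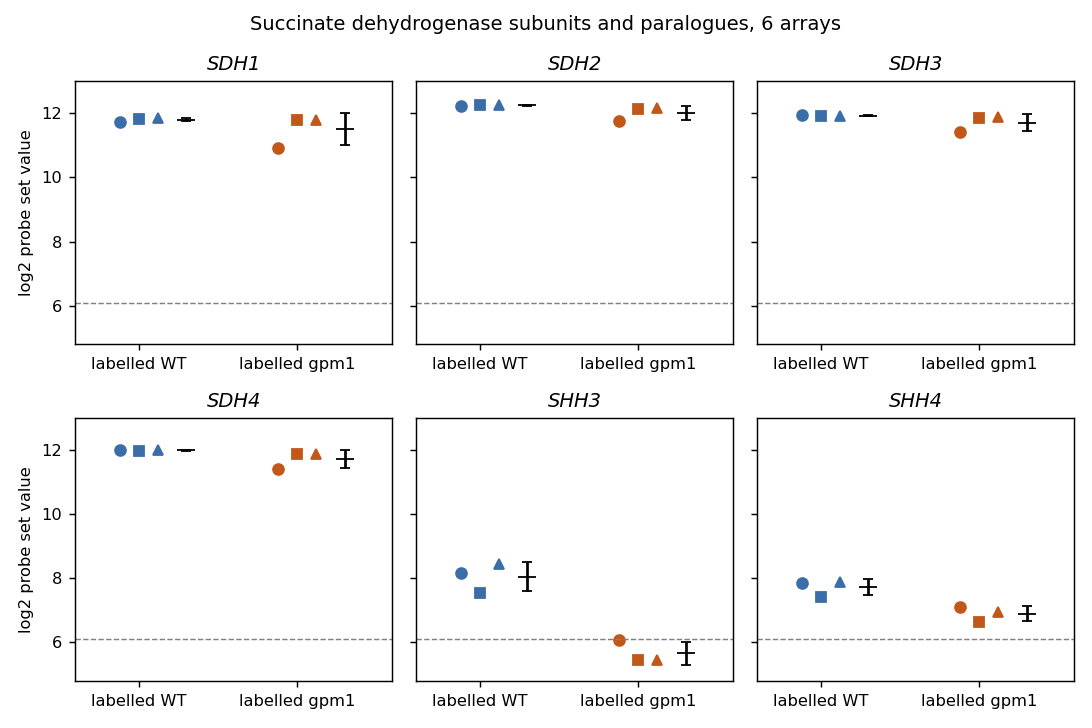
Log2 probe set value (vertical axis) of each of the 6 genes on the 3 WT-labelled arrays (blue) and the 3 labelled gpm1 (orange); circles, squares and triangles are replicates 1, 2 and 3, black marks are the mean with its SD (n = 3), and the dashed line is the background percentile of 6.09. SHH3 lies under that line on all 3 gpm1-labelled arrays, while the subunit genes differ mainly on gpm1-labelled replicate 1.

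Both catalytic subunit genes were lowest on gpm1-labelled replicate 1. SDH1 (YKL148C), for the flavoprotein, gave 11.74, 11.82 and 11.85 on the WT-labelled arrays and 10.93, 11.77 and 11.80 on the gpm1-labelled arrays. The gpm1-labelled replicates 2 and 3 fell inside the range of the WT-labelled arrays, and replicate 1 lay well under it, so the groups overlapped. The log2 difference was -0.30 (SE 0.24, 95% interval -0.89 to 0.28, limma adjusted p = 0.447). SDH2 (YLL041C), for the iron-sulphur protein, gave 12.24, 12.25 and 12.26 against 11.74, 12.12 and 12.15. All 3 gpm1-labelled arrays were below all labelled WT, with replicate 1 the lowest. The log2 difference was -0.25 (SE 0.13, 95% interval -0.56 to 0.06, limma adjusted p = 0.282).

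The membrane anchor genes had nearly the same pattern as SDH2. SDH3 (YKL141W) gave 11.94, 11.92 and 11.92 on the WT-labelled arrays and 11.40, 11.84 and 11.88 on the gpm1-labelled arrays, a log2 difference of -0.22 (SE 0.14, 95% interval -0.57 to 0.13, adjusted p = 0.365). SDH4 (YDR178W) gave 11.99, 11.97 and 12.00 against 11.40, 11.87 and 11.86, a log2 difference of -0.28 (SE 0.15, 95% interval -0.63 to 0.08, adjusted p = 0.286). In both genes the groups did not overlap, and the gap between the lowest WT-labelled array and the highest labelled gpm1 was 0.04 for SDH3 and 0.10 for SDH4. Groups did not overlap in this direction for 15.4% of all genes, and for 3 of the 4 subunit genes. At an unadjusted p of 0.05, 0 of the 4 subunit genes passed, where 22.4% of all genes did.

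The lower level of the subunit genes came mostly from gpm1-labelled replicate 1. Relative to the mean of the WT-labelled group, that array stood at -0.87 for SDH1, -0.51 for SDH2, -0.53 for SDH3 and -0.59 for SDH4. The median over the 4 genes was -0.56 on replicate 1, -0.10 on replicate 2 and -0.08 on replicate 3, where the medians over all genes were 0.05, -0.01 and 0.02. Replicate 1 was also the array with the highest poly-A control signal (7.14), whose part in the result was not tested. Without replicate 1 the log2 difference was -0.02 for SDH1 (95% interval -0.19 to 0.16), -0.12 for SDH2 (-0.27 to 0.04), -0.07 for SDH3 (-0.23 to 0.09) and -0.12 for SDH4 (-0.28 to 0.03). All 4 values were then nearer to 0, by more than 1.5 times.

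**Figure D2:**
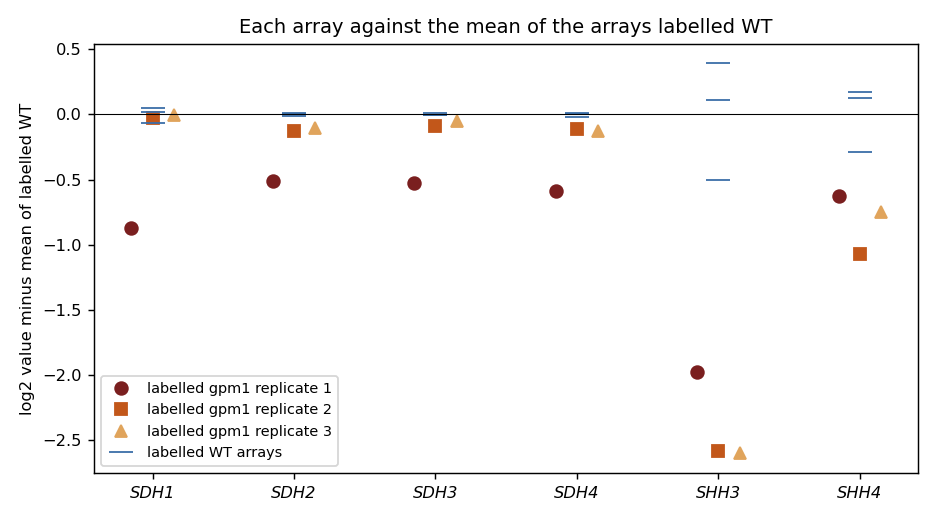
Log2 value of each array minus the mean of the WT-labelled arrays (vertical axis) for the 6 genes; filled symbols are the 3 gpm1-labelled arrays and blue dashes the 3 labelled WT. On gpm1-labelled replicate 1 the subunit genes lie between -0.87 and -0.51, whereas SHH3 lies at -1.97 or lower on all 3 gpm1-labelled arrays.

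SHH3 (YMR118C), the SDH3 homologue, gave 8.15, 7.54 and 8.43 on the WT-labelled arrays. On those labelled gpm1 it gave 6.07, 5.46 and 5.44, all under the background percentile of 6.09. The groups were 1.47 apart at their nearest arrays. The mean was 8.04 ± 0.46 on the WT-labelled arrays and 5.66 ± 0.36 on the gpm1-labelled arrays (SD, n = 3). The log2 difference was -2.39 (SE 0.28, 95% interval -3.06 to -1.72, limma adjusted p = 0.0243), a measured 5.23-fold. As the dim group lay under the background percentile, that percentile was put in its place. On the means, SHH3 was then 3.86-fold higher in the WT-labelled arrays. This estimate leaves out the spread among those arrays.

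Since SHH3 lay under the background percentile on each of them, no order among the gpm1-labelled arrays is read from it. The poly-A controls stood at 7.14, 6.67 and 6.21 on these arrays, and their part in the result was not tested. The call depended on single arrays. Over all genes, 0.202%, 0.239% and 0.22% passed in the fits given next, in that order, against 0.807% with all arrays. Leaving out WT-labelled replicate 1 gave an adjusted p of 0.179 (log2 difference -2.33), leaving out WT-labelled replicate 3 gave 0.126 (-2.19), and leaving out gpm1-labelled replicate 2 gave 0.137 (-2.29). With 64 added on the linear scale, the log2 difference was -1.52 (adjusted p = 0.0492), and a filter that removed the dimmest 20% of genes removed SHH3 itself.

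SHH4 (YLR164W), the SDH4 homologue, gave 7.84, 7.42 and 7.88 on the WT-labelled arrays and 7.09, 6.64 and 6.96 on the gpm1-labelled arrays. All 6 values lay above the background percentile, and the groups did not overlap, with a gap of 0.33. The mean was 7.71 ± 0.25 on the WT-labelled arrays and 6.90 ± 0.23 on the gpm1-labelled arrays (SD, n = 3). The log2 difference was -0.82 (SE 0.18, 95% interval -1.24 to -0.39), a measured 1.76-fold, and it did not pass over all genes (unadjusted p = 0.00307, limma adjusted p = 0.135). It passed without gpm1-labelled replicate 3 at -0.85 (adjusted p = 0.0241), in a fit where 41.1% of all genes passed and 19.5% passed as lower. The subunit genes did not pass in that fit, with adjusted p-values from 0.0926 for SDH2 to 0.197 for SDH1.

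An exact permutation test on each gene's 6 values (two-sided) returned p = 0.1 for SDH2, SDH3, SDH4, SHH3 and SHH4, the smallest that 3 arrays against 3 allow, and p = 0.4 for SDH1. The plot of differences with their intervals sets the 6 genes beside TIM18 and the genes that act in the assembly of the enzyme.

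**Figure D3:**
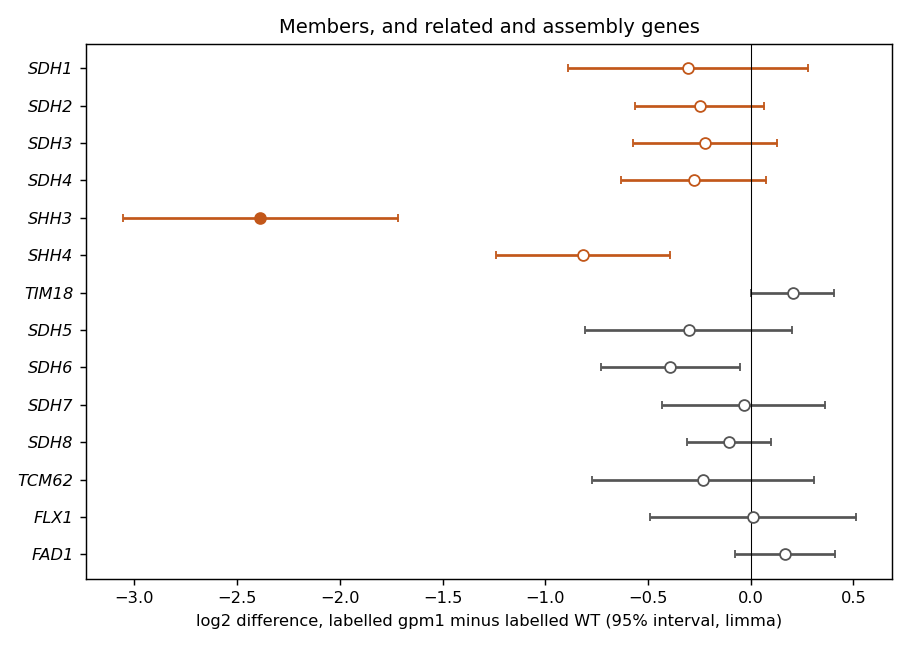
Log2 difference, labelled gpm1 minus labelled WT, with its 95% interval from limma (horizontal axis) for the 6 genes (orange) and for TIM18 and 7 assembly genes (grey); the filled point passed an adjusted p of 0.05 over all genes. SHH3 at -2.39 is the filled point, and SHH4 at -0.82 is the next lowest.

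Whether the homologues differed from the subunit genes by unlike amounts was asked of the log2 ratio within each array, set to a mean of 0 over the WT-labelled arrays. For SDH3 over SHH3 the ratio was -0.10, 0.50 and -0.40 on the WT-labelled arrays and 1.45, 2.49 and 2.55 on the gpm1-labelled arrays. The groups did not overlap, and the ratio was 2.16 higher in the gpm1-labelled arrays (exact two-sided permutation p = 0.1, the smallest possible, adjusted p = 0.15 over 3 pairs). SHH3 lay under the background percentile on the latter, and with 64 added on the linear scale the difference in that ratio was 1.30. For SDH4 over SHH4 the ratio was -0.12, 0.27 and -0.16 against 0.03, 0.96 and 0.62. The gpm1-labelled replicate 1 lay inside the range of the WT-labelled arrays, and the difference of 0.54 gave an exact permutation p of 0.2 (adjusted p = 0.2). With 3 arrays against 3, a p under 0.05 cannot be reached for any pair.

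TIM18, the third of these relatives, lay the other way. It gave 8.54, 8.53 and 8.53 on the WT-labelled arrays and 8.66, 8.75 and 8.80 on the gpm1-labelled arrays, a log2 difference of 0.20 (SE 0.08, 95% interval 0.00 to 0.41, limma adjusted p = 0.220) that did not pass. Its groups did not overlap, as for 19.2% of all genes in that direction. The log2 ratio of SDH4 over TIM18 was -0.72, -0.33 and -0.40 on the gpm1-labelled arrays, against a spread of 0.0149 (SD, n = 3) on those labelled WT (difference -0.48, exact permutation p = 0.1, adjusted p = 0.15). YJL045W, a relative of SDH1, was not analysed here.

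The 2 homologues also differed from the subunit genes in how far the WT-labelled arrays lay from each other. SHH3 had an SD of 0.46 among those 3 arrays, and 0 of the other genes tested had a larger one. SHH4 had an SD of 0.25, and 19 genes had a larger one. SDH1 had an SD of 0.0579, above the median of 0.0484 over all genes, and 38.0% of genes had a larger one. Both were lowest on WT-labelled replicate 2, with log2 deviations from the group mean of -0.50 for SHH3 and -0.29 for SHH4, and highest on WT-labelled replicate 3. SDH2, SDH3 and SDH4 had SDs of 0.0149, 0.0106 and 0.0155 among the same arrays, and 92.8%, 95.9% and 92.3% of all genes had a larger one. The WT-labelled means were 8.04 for SHH3 and 7.71 for SHH4, against 11.80 to 12.25 for the subunit genes. The part of signal level in these SDs was not tested. Among the gpm1-labelled arrays SDH1 had the largest SD of the 6 genes at 0.49, and 14.8% of all genes exceeded it. SHH4 stood at 0.23. SHH3 stood at 0.36, but its values on those arrays lay under the background percentile, so its place in this order is not read.

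**Figure D4:**
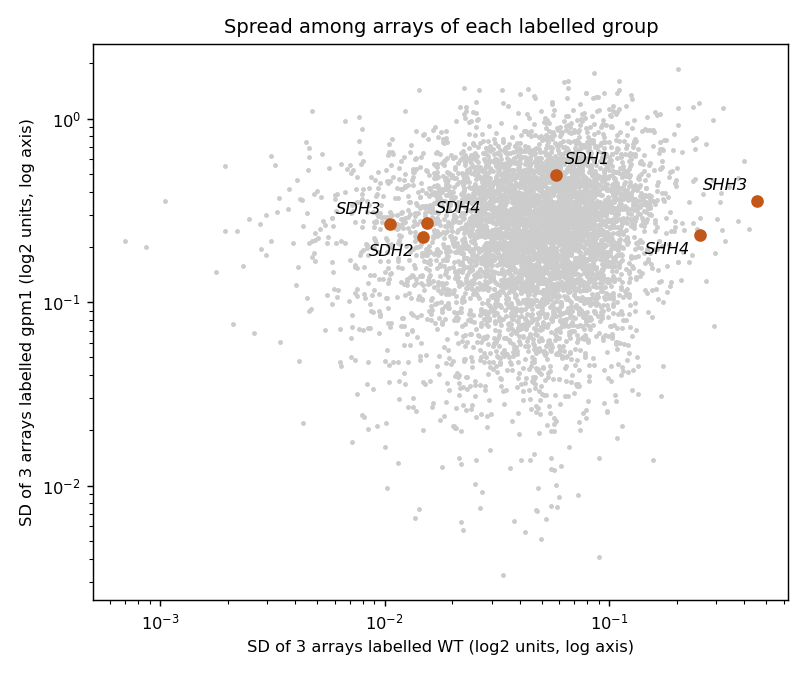
SD of the 3 gpm1-labelled arrays (vertical, log axis) against the SD of the 3 WT-labelled arrays (horizontal, log axis) for all 5449 genes (grey), with the 6 genes in orange. SHH3 lies farthest right at 0.46, while SDH2, SDH3 and SDH4 lie far to the left, between 0.0106 and 0.0155.

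Genes with the most similar profile were found by the root-mean-square difference between log2 profiles, each centred on its gene's mean over the 6 arrays, among the genes above the background percentile. SHH3 was nearest to SPG1, a gene required for survival in stationary phase, at 0.126 and to SSA3, for a stress-inducible chaperone of the Hsp70 family, at 0.135. SPG1 gave 9.17, 8.58 and 9.40 on the WT-labelled arrays and 6.74, 6.30 and 6.31 on the gpm1-labelled arrays. SSA3 gave 10.14, 9.62 and 10.40 against 8.34, 7.35 and 7.32. Both passed as lower, at -2.60 (adjusted p = 0.0104) and -2.38 (adjusted p = 0.0455). SHH4 was nearest to YHR138C at 0.0975 and to RTN2, for a reticulon of the endoplasmic reticulum, at 0.0983, and neither passed (adjusted p = 0.0640 and 0.140). Since neighbours were picked for likeness over all 6 arrays, a shared low WT-labelled replicate 2 and lower gpm1-labelled values follow from the choice. These distances rest on 6 arrays that share 2 labelled groups, and those of SHH3 include 3 values under the background percentile.

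**Figure D5:**
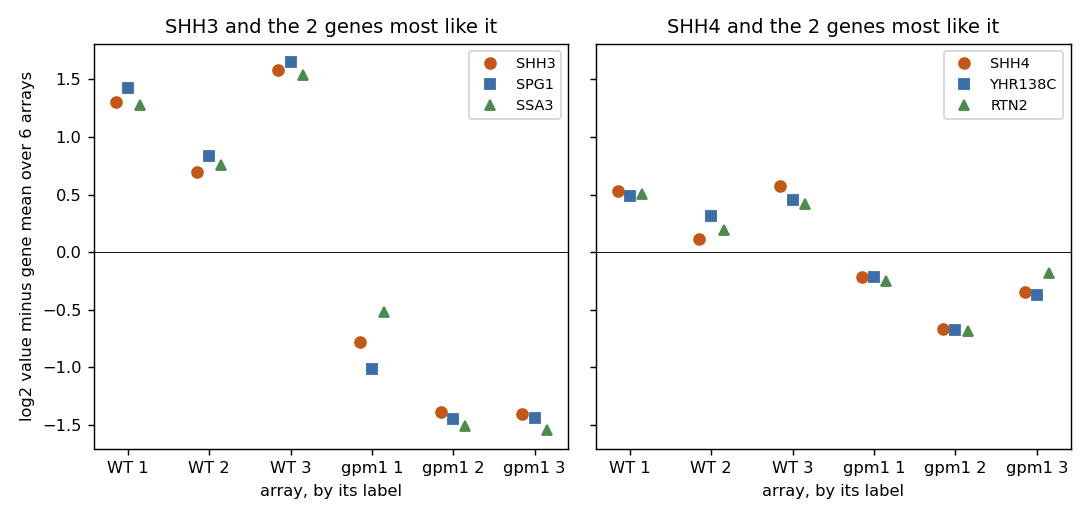
Log2 value minus the gene's mean over the 6 arrays (vertical axis) by array label, for SHH3 with SPG1 and SSA3 (left) and SHH4 with YHR138C and RTN2 (right). Each homologue and its 2 neighbours are lower on every gpm1-labelled array, and within the WT-labelled arrays they are lowest on replicate 2. The neighbours were picked for likeness over these same arrays.

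The subunit genes had many near profiles. Within a root-mean-square difference of 0.1 lay 48 genes for SDH1, 211 for SDH2, 194 for SDH3 and 118 for SDH4, against 0 for SHH3 and 3 for SHH4. SDH2 was nearest to SDH3, at 0.0305, and then to SAM35, which encodes a part of the sorting machine of the outer mitochondrial membrane, at 0.0333. SDH3 was nearest to PMP1, for a small protein tied to the plasma membrane proton pump, at 0.0284, with SDH2 next. SDH4 was nearest to GTB1, for a glucosidase subunit of the endoplasmic reticulum, at 0.0187 and to CDC48, for an ATPase of protein breakdown, at 0.0290. SDH1 was nearest to RPO31, for the largest subunit of RNA polymerase III, at 0.0277 and to MET1, for an enzyme of sirohaem synthesis, at 0.0354. Among the subunit genes SDH1 stood apart from the other three, at 0.135 to 0.159, while those were 0.0305 to 0.0344 from each other.

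Genes that assemble the enzyme or supply its flavin did not pass in either direction (0 of 7 by limma), with a median log2 difference of -0.11. At an unadjusted p of 0.05, 1 of the 7 passed, SDH6, against 22.4% of all genes. SDH5, needed to attach the flavin to Sdh1, gave 9.56, 9.60 and 9.68 on the WT-labelled arrays and 8.87, 9.36 and 9.70 on the gpm1-labelled arrays (difference -0.30, adjusted p = 0.388). SDH6, an assembly factor for the iron-sulphur subunit, gave 9.27, 9.01 and 9.24 against 9.02, 8.61 and 8.72 (difference -0.39, adjusted p = 0.204). The groups overlapped for both. SDH7, which acts beside SDH6, stood at -0.03, SDH8, which aids the flavoprotein, at -0.11, and the chaperone gene TCM62 at -0.23. FLX1, for a mitochondrial flavin carrier, stood at 0.01 and FAD1, for the enzyme that makes the flavin cofactor, at 0.17. The fit without gpm1-labelled replicate 3 called 1 of the 7 lower, TCM62 at -0.47 (adjusted p = 0.0342), where 19.5% of all genes passed as lower. SDH5 stood at -0.50 in that fit and did not pass.

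Of the 14 measured genes listed with the tricarboxylic acid cycle, 0 passed in either direction by limma (1 at an unadjusted p of 0.05, where 22.4% of all genes did). The list includes CIT2 (-0.63), for a peroxisomal citrate synthase, which is not an enzyme of that cycle. All 14 differences were below 0, as were 2592 of all 5449. Their median was -0.29, and -0.73, -0.10 and -0.03 on gpm1-labelled replicates 1, 2 and 3. The medians of the subunit genes had the same order of arrays. So did those of the assembly genes, succinate and fumarate genes, other dehydrogenases, complex III and HAP regulators. The ubiquinone and complex IV lists did not. The 2 largest differences were LSC1, for a subunit of succinyl-CoA ligase, which makes succinate, at -0.91 (adjusted p = 0.247), and CIT3, for a mitochondrial citrate synthase, at -0.84 (adjusted p = 0.162). LSC1 gave 11.34, 11.38 and 11.39 on the WT-labelled arrays and 9.56, 10.46 and 11.36 on the gpm1-labelled arrays. Without gpm1-labelled replicate 3, 4 of the 14 passed as lower, CIT2 among them, against 19.5% of all genes.

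Among 7 genes that make, carry or use succinate and fumarate outside the complex, 0 passed by limma (3 at an unadjusted p of 0.05, against 22.4% of all genes), with a median of -0.31. ICL2, for a mitochondrial 2-methylisocitrate lyase, stood at -0.54 (adjusted p = 0.196) and ICL1, for isocitrate lyase of the glyoxylate cycle, at -0.52 (adjusted p = 0.215). FRD1 and OSM1, which encode fumarate reductases and so catalyse the reverse reaction, stood at 0.10 and -0.02. SFC1, for the carrier that exchanges succinate and fumarate, gave 11.89, 11.86 and 11.93 on the WT-labelled arrays and 11.22, 11.21 and 11.90 on the gpm1-labelled arrays. Without gpm1-labelled replicate 3, 4 of the 7 passed as lower, against 19.5% of all genes.

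Genes for ubiquinone synthesis and for other dehydrogenases that feed the respiratory chain gave no call with all arrays. Of 11 ubiquinone synthesis genes 0 passed, with a median of 0.00, COQ5 at 0.28 and COQ4 at -0.27. At an unadjusted p of 0.05, 2 of the 11 passed, against 22.4% of all genes. Of 6 genes for other dehydrogenases of the inner membrane or the space outside it that feed the respiratory chain, 0 passed. Their median was -0.49, and 2 passed unadjusted, against 22.4% of all genes. NDE2, for an external NADH dehydrogenase, gave 9.66, 9.48 and 9.68 on the WT-labelled arrays and 6.91, 7.06 and 9.46 on the gpm1-labelled arrays, a difference of -1.79 (adjusted p = 0.208). CYB2, for a lactate dehydrogenase that passes electrons to cytochrome c, stood at -0.63. It was not among the genes that passed unadjusted or without gpm1-labelled replicate 3. Without gpm1-labelled replicate 3, 3 of the 6 passed as lower, against 19.5% of all genes. In that fit 1 of the 11 ubiquinone genes passed as higher, COQ10 at 0.36 (adjusted p = 0.0263), against 21.6% of all genes. Of the same 11 genes, 1 passed as lower, COQ4 at -0.29 (adjusted p = 0.0492), against 19.5% of all genes.

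Downstream of ubiquinone the medians lay near 0. In complex III 0 of 9 genes passed (0 at an unadjusted p of 0.05, against 22.4% of all genes). The median was -0.06, with RIP1, for the Rieske iron-sulphur protein, at -0.31 and COR1, for a core subunit, at -0.15. In the list of complex IV and cytochrome c 0 of 11 passed (0 unadjusted) and the median was 0.05, with CYC7, for the minor cytochrome c, at 0.67 and COX4 at -0.18. Without gpm1-labelled replicate 3, CYC7 stood at 1.14 and RIP1 at -0.49. In that fit 0 genes of these lists passed, where 41.1% of all genes did. Of the 5 HAP regulators, transcription factors known to control respiratory genes, 0 passed by limma (1 unadjusted, against 22.4% of all genes). HAP4, the regulated activator subunit, gave 10.68, 10.83 and 10.70 on the WT-labelled arrays and 10.79, 10.57 and 10.77 on the gpm1-labelled arrays (difference -0.03), and was added after its values were seen. HAP1, for a haem-responsive factor, stood at -0.53 (adjusted p = 0.222) and HAP2 at 0.16. Without gpm1-labelled replicate 3, 1 of the 5 passed as lower, HAP1 at -0.78 (adjusted p = 0.00283), against 19.5% of all genes.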

How the data were processed

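RNA of 6 samples was amplified from the 3' end, labelled with biotin and read on 1 array each, per the labels' protocols. The authors summarised probes with PLIER, per the submitters' processing notes, and the deposited values were taken as log2 from their range (4.88 to 13.12). The log base, any offset and the between-array scaling were not given in the sources used here. Of 10928 probe sets, 5498 matched a gene of the S. cerevisiae R64 table, used for names only, and the brightest probe set per gene left 5449 genes. Each of the 6 members had 1 probe set. The 1746 single-gene probe sets outside that table were used as background.

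Differences were fitted with limma 3.58.1 (lmFit, eBayes) in R 4.3.3 over all genes, labelled gpm1 minus labelled WT, with Benjamini-Hochberg adjustment and a threshold of 0.05. Paralogue pairs were compared by exact permutation. Genes named were GPM1, the members, the lists of related and assembly genes, the 2 largest differences of each other list, and 2 nearest profiles per member. SFC1, FRD1, OSM1, HAP4, CIT2, UGA2 and COQ10 fall outside that rule and were added after their values were seen. Alternatives were other normalizations, filters, priors, array weights, a replicate block and leaving out each array. The members and lists were chosen with earlier results of these data known. Promoter and protein sequences were not used here.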

Additional observations from a re-analysis of the deposited data

How the results depend on the processing

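The direction of all 6 members was kept under every alternative run, and the side of the threshold was kept for SDH1, SDH2, SDH3 and SDH4 in 14 of 14 alternatives each. The count of all genes past the threshold, 44 with all arrays, was 1009 with array weights and ranged from 11 to 2240 when 1 array was left out. The count of members past it, 1 with all arrays, was 0 without the dimmest 20% of genes, which leaves SHH3 untested, and ranged from 0 to 2 with 1 array left out. The 2 were SHH3 and SHH4, without gpm1-labelled replicate 3. With 1 array left out, the log2 difference ranged from -2.64 to -2.19 for SHH3 (adjusted p from 0.00484 to 0.179 over its alternatives), from -0.96 to -0.69 for SHH4 (0.0241 to 0.506), from -0.45 to -0.02 for SDH1, from -0.32 to -0.12 for SDH2, from -0.31 to -0.07 for SDH3 and from -0.36 to -0.12 for SDH4. The SDH3 over SHH3 ratio moved from 2.16 to 1.30 with 64 added on the linear scale, which compresses dim values by construction. It ranged from 1.97 to 2.52 with 1 array left out. The ranges were 0.33 to 0.79 for SDH4 over SHH4 and -0.56 to -0.36 for SDH4 over TIM18. Deviations of same-numbered arrays from their group means correlated over genes at 0.05, 0.02 and -0.13. Differently numbered arrays of the 2 groups correlated at -0.24 to 0.18. These values show no pairing by replicate number, and cannot settle whether same-numbered samples were handled together. A fit with replicate number as a block term passed 31 genes, and SHH3 was called at -2.39 (adjusted p = 0.0254) and no other member's call changed (SHH4 adjusted p = 0.105). The cause of these shifts was not tested. Signal limits SHH3 on the gpm1-labelled arrays, where it lies under the background percentile of 6.09.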
